A study of Mus musculus and Acomys cahirinus with 25 samples.

Results

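The 6 genes described here, Pthlh, Gprc5a, Slpi, Cadm4, Pax9 and Tcf23, were selected from 24500 gene symbols because they stood higher in wound center epidermis than in wound margin epidermis of the lab mouse. Since that difference chose them, their center and margin values in lab mouse epidermis are a description and carry no test, and the tests concern lab mouse dermis and the spiny mouse. The lab mouse (Mus musculus, C57BL/6J background, 3 or 4 weeks old in different passages of the study) received a full-thickness excision of 1 × 1 cm on the back, and at post-wound day (PWD) 14 a punch from the geometric center was separated from the remaining margin. Lab mouse libraries were 2 of center epidermis, 2 of margin epidermis, 5 of center dermis and 2 of margin dermis, all wild type (WT), and 2 of center dermis from the K14-Cre-Twist1 knockout (KO). In that KO, Cre acts in keratin 14 expressing epidermis, so dermis is not the targeted tissue, though KO library 2 carried keratinocyte transcripts (below). Twist1 in these libraries does not check the deletion (73.4 and 44.0 CPM in the KO, against 57.7, 36.3 and 105 CPM in the WT center libraries 3, 4 and 5). Spiny mouse (Acomys cahirinus, WT, 2 months old) libraries were from unwounded skin at PWD0 and from whole wounds at PWD14, 21 and 28, with 1, 2, 2 and 1 libraries of epidermis and 2, 1, 2 and 1 of dermis. These days follow the labels, and a supplementary list of the study gives the wound days of the same libraries slightly differently. No center was separated in the spiny mouse, so its values cannot show a center and margin difference.

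Expression is given as CPM, the reads counted on a gene scaled by the sum over all genes of that library to 1000000 reads. Libraries held between 19413261 and 86532134 reads on genes in the lab mouse and between 5669760 and 34751956 in the spiny mouse. The detection floor was set at 3 reads, which equals 0.0347 to 0.529 CPM over the 25 libraries and covers counting error only. Spiny mouse reads were aligned to the mouse genome, and 38.0% to 60.5% of them were set aside for low alignment quality, against 23.3% to 34.4% in the lab mouse. Species, library type and alignment to a foreign genome therefore cannot be told apart, and levels are compared within a species. Tissue labels were checked on defining markers. The 9 detected suprabasal keratinocyte genes summed to between 143391 and 200725 CPM in lab mouse epidermis, and the 15 fibroblast genes to between 106294 and 201542 CPM in lab mouse dermis. In the spiny mouse, the fibroblast genes summed to 694 to 2032 CPM in epidermis and 77903 to 184981 CPM in dermis. Separation was incomplete at PWD0, where basal keratinocyte genes summed to 10005 and 5933 CPM in dermis, against 13552 to 57152 CPM in spiny mouse epidermis. The KO dermis library 2 stood apart, with Krt14 at 4707 CPM against 1.08 to 509 CPM in the other lab mouse dermis libraries, so results that rest on it are also given without it.

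Pthlh encodes parathyroid hormone-related protein (PTHrP), a secreted ligand of keratinocytes whose receptor, Pth1r, acts mostly in the underlying mesenchyme and couples to cAMP signaling. Gprc5a encodes a retinoic acid-induced orphan receptor of epithelia, Slpi a secreted inhibitor of neutrophil serine proteases that is known for its part in wound healing, and Cadm4 an immunoglobulin-like cell adhesion molecule of epithelial and glial cells. Pax9 is a paired-box transcription factor of oral, thymic and skeletal development, and Tcf23 a basic helix-loop-helix (bHLH) factor that lacks DNA binding of its own.

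On the mouse GRCm38 assembly (GENCODE vM21), Pthlh lies on chromosome 6 from 147252101 to 147264183 on the minus strand, and Gprc5a on the same chromosome from 135065651 to 135084709 on the plus strand. Slpi lies on chromosome 2 from 164354070 to 164389095 on the minus strand, Cadm4 on chromosome 7 from 24482023 to 24504539 on the plus strand, Pax9 on chromosome 12 from 56691767 to 56712822 on the plus strand and Tcf23 on chromosome 5 from 30968662 to 30977018 on the plus strand. Pax9 is overlapped on the other strand by the antisense gene Gm15524 and by Slc25a21. The lab mouse libraries were strand-specific and those of the spiny mouse were not, so in the spiny mouse Pax9 reads cannot be told from reads of these overlapping genes. The strand option of the counting is not given, so the separation is not assured in the lab mouse either.

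The 250 bases upstream of the RefSeq start (GRCm38.p6) are shown for 3 genes that stood high in center epidermis, the Pthlh and Cadm4 windows being rich in G and C and the Slpi window not. Capitals mark the E-box CANNTG, the motif that bHLH factors bind, searched on both strands, a palindrome with no overlap between the matches shown.

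Pthlh, chr6:147264014-147264263, minus strand: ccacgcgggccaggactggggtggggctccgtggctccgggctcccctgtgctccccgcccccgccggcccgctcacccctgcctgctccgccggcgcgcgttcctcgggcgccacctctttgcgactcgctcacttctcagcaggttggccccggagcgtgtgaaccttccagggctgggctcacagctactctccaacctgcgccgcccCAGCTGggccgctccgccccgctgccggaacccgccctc
Slpi, chr2:164356508-164356757, minus strand: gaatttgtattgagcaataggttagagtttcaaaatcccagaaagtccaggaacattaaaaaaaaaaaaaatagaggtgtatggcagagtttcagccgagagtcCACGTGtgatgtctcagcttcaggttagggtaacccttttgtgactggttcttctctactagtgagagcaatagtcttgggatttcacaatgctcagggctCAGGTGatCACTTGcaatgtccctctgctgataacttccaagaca
Cadm4, chr7:24481773-24482022, plus strand: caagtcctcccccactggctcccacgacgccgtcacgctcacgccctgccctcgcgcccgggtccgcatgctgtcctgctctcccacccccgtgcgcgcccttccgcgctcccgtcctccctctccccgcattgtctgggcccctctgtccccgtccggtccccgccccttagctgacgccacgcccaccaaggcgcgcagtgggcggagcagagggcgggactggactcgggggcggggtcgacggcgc

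The Pthlh and Cadm4 windows were 75.2% G or C, higher than 96.1% of the 32851 windows of that length, and held 26 and 30 CG dinucleotides. The Slpi window had 42.0%, below the median of 52.4% over all windows. By the RefSeq extents, the windows for Pax9 (43.6%) and Tcf23 (59.2%) do not lie upstream of the whole gene. RefSeq starts Pax9 at 56691693, so its window from 56695221 to 56695470 lies inside the gene, and that of Tcf23 runs past the gene's first base at 30968602. The GENCODE extents of Slpi and Pthlh, both on the minus strand, reach further upstream, to 164389095 and 147264183. By these extents the Slpi window lies inside the gene and the Pthlh window partly inside it. An E-box occurred once in the windows of Pthlh, Pax9 and Tcf23, 3 times in that of Slpi and not in that of Cadm4, and 66.2% of all windows held at least 1. None of the 5 windows held the AP-1 motif TGANTCA, the TATA box TATAAA, the CCAAT box CCAAT or the LEF/TCF motif CTTTGAT, which were in 6.75%, 12.4%, 33.8% and 3.21% of all windows. A match is a stretch of letters and not a measured site. Gprc5a was not matched in the sequence table.

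In the lab mouse epidermis, 5 of the 6 genes were near or at 0 in the margin and clearly counted in the center, while Tcf23 was well counted in both. Pthlh was at 16.3 and 30.1 CPM in the center libraries and had 0 reads in both margin libraries. Against the floor of 3 reads per library, that is at least 273-fold higher. Gprc5a was at 8.50 and 14.3 CPM in the center and had 0 reads in both margin libraries, at least 134-fold higher. Such absence was uncommon: of 11721 genes at 1 CPM or more in both center libraries, 23 had 0 reads in both margin libraries, and Pthlh and Gprc5a ranked 1 and 2 among them by center CPM. The selection drew on these same libraries, so their place among these genes follows from it and is no separate result. In the opposite direction, 0 of 11000 genes at that level in both margin libraries had 0 reads in both center libraries.

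Slpi was at 57.9 and 90.8 CPM in the center and at 0 and 0.347 CPM in the margin, where its 30 reads came from 1 library. The ratio of the means was 429. Cadm4 was at 6.57 and 9.61 CPM in the center, against 1 and 4 reads in the margin, a ratio of 217. Pax9 was at 8.22 and 10.999 CPM in the center, against 0 and 7 reads in the margin, a ratio of 238. For Cadm4 and Pax9 the ratio rests on few margin reads, and its size is loosely set. Tcf23 was at 54.5 and 49.8 CPM in the center and at 23.3 and 11.3 CPM in the margin, a ratio of 3.02. Per kilobase of exon, the center level ran from Slpi (63.0 CPM per kb) over Pthlh (14.3), Tcf23 (12.7), Gprc5a (5.48) and Cadm4 (3.74) to Pax9 (1.90).

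**Figure D1:**
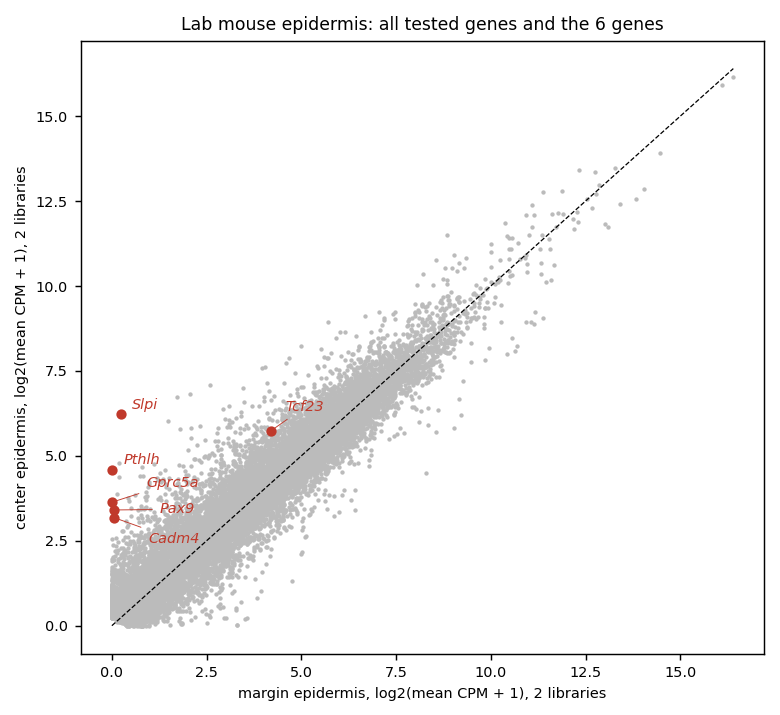
Each grey point is 1 of the 14165 genes tested, by its mean level in the 2 margin epidermis libraries (horizontal axis) and the 2 center epidermis libraries (vertical axis), as log2(mean CPM + 1), with equal levels on the dashed line. Pthlh, Gprc5a, Slpi, Cadm4 and Pax9 lie on the left edge, at a margin mean between 0 and 0.173 CPM, and Tcf23 lies nearer to the line at 17.3 and 52.2 CPM.

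Ranked by log2 fold change among the 4367 genes that averaged 1 CPM or more and whose center libraries both exceeded the margin libraries, Pthlh was 1, Gprc5a 2, Slpi 8, Cadm4 13, Pax9 14 and Tcf23 687. The genes ranked between Gprc5a and Pax9 that were not selected had center means of 2.02 to 4.90 CPM, below those of the 6 genes, among them Pla1a at rank 3 (4.90 CPM in the center, 0 reads in the margin) and Il19 at rank 4 (2.88 CPM, 0 reads). Among the genes ranked beside Tcf23, Tpgs1 at 686 had a log2 fold change equal to its own to 2 decimals (1.51 each). So Tcf23 was not among the strongest genes by fold change, though its center CPM was high. In edgeR's quasi-likelihood test over all 14165 genes, 0.882% were called higher in the center at a false discovery rate (FDR) under 0.05, and 5 of the 6 genes were among them, a count that the selection itself fixes. With edgeR's legacy quasi-likelihood test 0 genes were called in either direction (2893 at an unadjusted p under 0.05), and with DESeq2 1541 were. Fibroblast markers moved the same way: the 15 genes summed to 7203 and 5926 CPM in center epidermis and to 2831 and 1072 CPM in margin epidermis. Basal keratinocyte markers summed to 19373 and 21049 CPM in the center and 10710 and 18413 CPM in the margin. The 7 endothelial markers had a median log2 fold change of 3.16, with 0 called. The part of these cell types in the values of the 6 genes was not tested. In bulk tissue, fewer cells of a type and less RNA per cell cannot be told apart.

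Relatives of the 6 genes ranged from uncounted to abundant in margin epidermis, where 17 of 22 Wap core genes and 6 of 8 other Pax genes had 0 reads in both libraries, against 1 of 10 Cadm and nectin genes. Pth1r was at 5.12 and 4.70 CPM in the center and 1.81 and 0.555 CPM in the margin. Gprc5b, another orphan receptor of the Gprc5 family, was at 4.52 and 4.74 CPM in the center and 0.113 and 0.809 CPM in the margin. Wfdc12 and Wfdc21, which like Slpi hold a Wap four-disulfide core, were lower in the center by value: Wfdc21 at 348 and 295 CPM against 852 and 572 CPM. Cadm1 was at 26.6 and 29.9 CPM in the center and 75.2 and 35.9 CPM in the margin. Pax1, the nearest relative of Pax9, had 0 reads in all 4 epidermis libraries.

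Among the gene lists, 0 of 15 tested PTHrP signaling genes, 0 of 6 Wap core genes and 0 of 8 Cadm and nectin genes passed the test in either direction in lab mouse epidermis, where 0.882% of all tested genes were called higher and 0.360% lower. The calls below were, like all others in this comparison, absent with the legacy test. In oral epithelium genes, 1 of 9 rose, Pitx1, a homeobox factor of oral and hindlimb development (log2 fold change 3.58, SE 0.44, FDR 0.0369 by edgeR). Of 21 wound-activated keratinocyte genes, 2 rose and 0 fell, with a list median of 1.81 beside -0.02 over all tested genes. They were Sprr1a, a cornified envelope protein (log2 fold change 2.56), and Il1f6, an interleukin 1 family cytokine (1.70). Of 11 bHLH relatives of Tcf23, 1 rose, the mesenchymal factor Twist2 (3.01).

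Wound dermis of the same day was not used to select the genes, and no source ties its libraries to the wounds that gave the epidermis. It was asked whether they also differed between center and margin there. None of the 4 genes that could be tested passed the threshold, and Pax9 and Tcf23 were too low to test. In edgeR's quasi-likelihood test over 14698 genes, 0.850% were called in either direction. The study compared center libraries 1 and 2 with the 2 margin libraries, and this division is followed. The study calls its lab mouse RNA-seq replicates independent experiments, while the labels name no animals, so p-values measure the spread between these samples.

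Pthlh was at 4.67 and 8.45 CPM in center dermis libraries 1 and 2 and at 4.26 and 3.38 CPM in margin dermis, without overlap but close. Its log2 fold change was 0.84 (SE 0.77, FDR 0.675). The other center libraries 3, 4 and 5, at 2.80, 5.74 and 1.71 CPM, spanned the margin values. Cadm4 was at 22.7 and 25.3 CPM in the center and 46.1 and 53.1 CPM in the margin, and libraries 3, 4 and 5 were lower still at 11.99, 17.2 and 19.7 CPM. All 5 center values lay below both margin values, yet the log2 fold change of -0.95 (SE 0.30) had an FDR of 0.200, and with all 5 center libraries an FDR of 0.0688.

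Gprc5a was at 0.227 and 0 CPM in center dermis libraries 1 and 2 and at 3.06 and 1.40 CPM in the margin (log2 fold change -4.07, SE 1.69, FDR 0.274). Center libraries 3, 4 and 5 were at 10.7, 4.94 and 1.63 CPM, and with all 5 the sign turned to 0.94 (FDR 0.725). The direction for Gprc5a in dermis thus depended on which center libraries entered, and these sets belong to different comparisons of the study. Slpi was at 1.36 and 3.04 CPM in the center and 3.06 and 1.31 CPM in the margin, with complete overlap (0.05, SE 0.99, FDR 0.991). Center libraries 3, 4 and 5 were at 3.91, 26.2 and 0.835 CPM, a wide spread set by library 4. Neutrophil markers summed to 306 CPM in library 4 and to 19.9 to 79.1 CPM in the other center libraries. Their part in the Slpi values was not tested.

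Pax9 had reads in 2 of the 9 dermis libraries, at most 0.403 CPM, and Tcf23 in 1, at 0.138 CPM. Against the floor, center epidermis was at least 338-fold and margin epidermis at least 128-fold higher in Tcf23 than dermis of the same region. Cadm4 stood the other way round, with a mean of 49.6 CPM in margin dermis and 0.0373 CPM in margin epidermis. These contrasts between tissues use the epidermis libraries that selected the genes and are descriptions. Epidermis was sequenced as paired-end and dermis as single-end reads, so tissue and read type cannot be told apart in them.

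**Figure D2:**
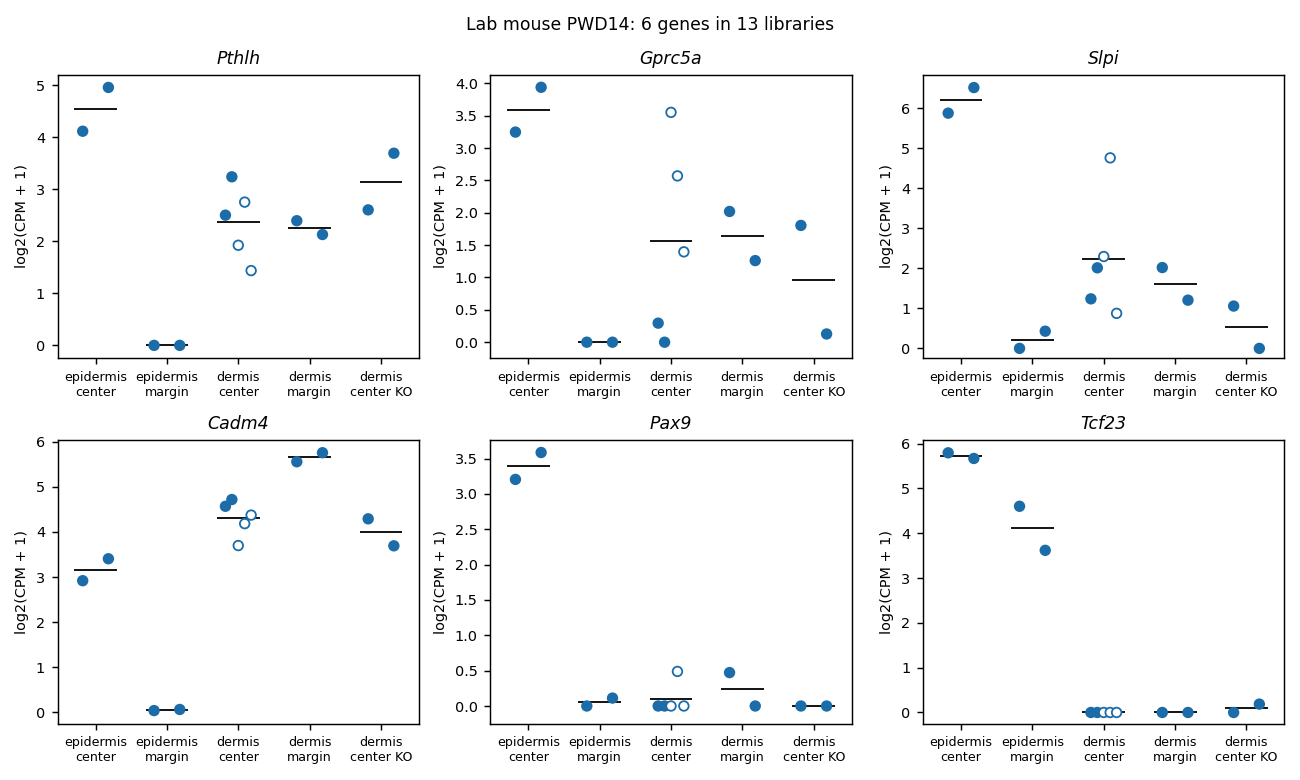
Levels of the 6 genes in the 13 lab mouse libraries at PWD14, as log2(CPM + 1). Points are libraries and lines are group means, and in center dermis filled points are libraries 1 and 2 and open points libraries 3, 4 and 5. Center epidermis lies above margin epidermis in all 6 panels, and Cadm4 is higher in every dermis library than in any epidermis library.

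Keratinocyte and hair follicle genes differed in the same dermis comparison. Suprabasal markers summed to 213 and 383 CPM in center libraries 1 and 2 and 1504 and 3651 CPM in the margin, and 7 of 9 were called lower in the center (median log2 fold change -3.34), against 0.735% of all tested genes. Of 14 hair follicle markers, 8 were called lower (median -9.13), and of 18 wound-activated keratinocyte genes 3 were called lower, Krt17, Sprr1a and Krt6b (-4.55, -3.61 and -2.98). Of 15 fibroblast markers, 0 were called in either direction. The part of these epidermal genes in the values of Gprc5a and Cadm4 was not tested. Of the Schwann cell markers, 2 of 5 were called lower in the center.

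Between KO and WT center dermis, none of the 4 testable genes passed edgeR's test, in which 0.0565% of 14163 genes were called in either direction. Pthlh was at 5.08 and 11.9 CPM in the KO and at 2.80, 5.74 and 1.71 CPM in WT libraries 3, 4 and 5 (log2 fold change 1.38, SE 0.87, FDR 0.535). Gprc5a was at 2.49 and 0.0922 CPM in the KO, below or within the WT range of 1.63 to 10.7 CPM (FDR 0.533). Slpi was at 1.08 and 0 CPM in the KO and 0.835 to 26.2 CPM in WT (FDR 0.441). Cadm4 was at 18.6 and 11.9 CPM in the KO and 11.99 to 19.7 CPM in WT (FDR 0.953). The KO library 2, which carried 9182 CPM of basal keratinocyte markers against 537 to 671 CPM in the WT, held the higher Pthlh value and the lower values of the other 3. Without it the 4 FDR values lay between 0.877 and 0.934.

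In the spiny mouse, Pthlh and Slpi were highest in the PWD14 epidermis, Cadm4 and Gprc5a were low to moderate, and Pax9 and Tcf23 were almost uncounted. Pthlh was at 6.42 CPM in PWD0 epidermis, 49.7 and 56.2 CPM at PWD14, 37.0 and 14.7 CPM at PWD21 and 6.67 CPM at PWD28. The mean at PWD14 was 8.24 times that of unwounded skin, and PWD28 was back at 1.04 times. These are ratios of CPM and depend on the scaling. TMM scaling factors in the fit over days were 0.720 and 0.757 at PWD14, 1.22 at PWD0 and 1.31 at PWD28. In that fit the span of Pthlh over the days was 3.82 on the log2 scale. PWD0 and PWD28 have 1 library each. Between PWD14 and PWD21, Pthlh was higher at PWD14 by a log2 fold change of 1.55 (SE 0.33, FDR 0.00326 by edgeR), with no overlap between the days. Pthlh also differed over the 4 days (FDR 0.000217), a test in which 59.5% of 14336 genes were called.

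Slpi was at 12.3 CPM in PWD0 epidermis, 80.1 and 118 CPM at PWD14, 26.2 and 15.9 CPM at PWD21 and 29.0 CPM at PWD28. It was higher at PWD14 than at PWD21 by 2.76 (SE 0.26, FDR 5.17e-05). Slpi differed over the 4 days as well (FDR 2.13e-05). Gprc5a was low throughout, at 0.472 CPM at PWD0, 2.87 and 1.53 CPM at PWD14, 2.99 and 0.343 CPM at PWD21 and 2.57 CPM at PWD28. Its PWD21 libraries enclosed the PWD14 values, and neither the day comparison (log2 fold change 0.67, SE 0.69, FDR 0.450) nor the test over days (FDR 0.336) passed. Without PWD21 library 1 the day comparison passed with an FDR of 0.0167. Cadm4 was at 12.9 CPM at PWD0, 8.37 and 8.23 CPM at PWD14, 11.9 and 7.59 CPM at PWD21 and 20.6 CPM at PWD28, with no difference past the threshold (FDR 0.475 between PWD14 and PWD21, 0.288 over days).

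Higher at PWD14 than at PWD21 were thus 2 of the 4 testable genes, against 23.4% of the 12889 genes tested. In this comparison the scaling mattered: TMM factors were 0.803 and 0.848 at PWD14 and 1.19 and 1.23 at PWD21, and by library size alone the median of all genes moved from -0.04 to -0.59 and the share of higher calls from 50.2% to 18.9%. Pthlh and Slpi were called higher at PWD14 under both scalings, at log2 fold changes of 1.01 and 2.22 by library size alone. Basal keratinocyte markers summed to 57152 and 47686 CPM at PWD14 and 33085 and 28980 CPM at PWD21, and 4 of 9 were called higher at PWD14 and 2 lower. Of 19 wound-activated keratinocyte genes, 15 were called higher and 2 lower, with a median of 1.89, including S100a9 (3.33), Areg (2.86), Krt17 (2.58) and Klk6 (2.29). Hair follicle markers stood the other way, with 8 of 14 lower at PWD14, against 23.2% of all tested genes. Among immune markers, 4 of 7 macrophage genes were called higher and 1 lower, and 3 of 6 T cell and Langerhans genes higher and 0 lower. The 1 tested neutrophil gene was higher (3.54). Macrophage markers nevertheless summed to less at PWD14 (30.4 and 34.5 CPM) than at PWD21 (47.0 and 54.8 CPM), as did T cell and Langerhans markers. The part of immune cells in the Slpi values was not tested.

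Pax9 had 0 reads in the PWD14 and PWD21 epidermis libraries and 2 reads each at PWD0 and PWD28 (0.189 and 0.205 CPM). Tcf23, counted at 11.3 to 54.5 CPM in lab mouse epidermis, had at most 6 reads in any spiny mouse epidermis library (0.616 CPM or less). Such a gap between the species was uncommon: of 6023 genes at 20 CPM or more in lab mouse center epidermis, 48 (0.797%) were under 1 CPM in every spiny mouse epidermis library, and of 9437 genes at 5 CPM or more, 238 (2.52%) were. Whether the spiny mouse lacks these transcripts or its reads fail to align to the mouse gene cannot be told apart.

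**Figure D3:**
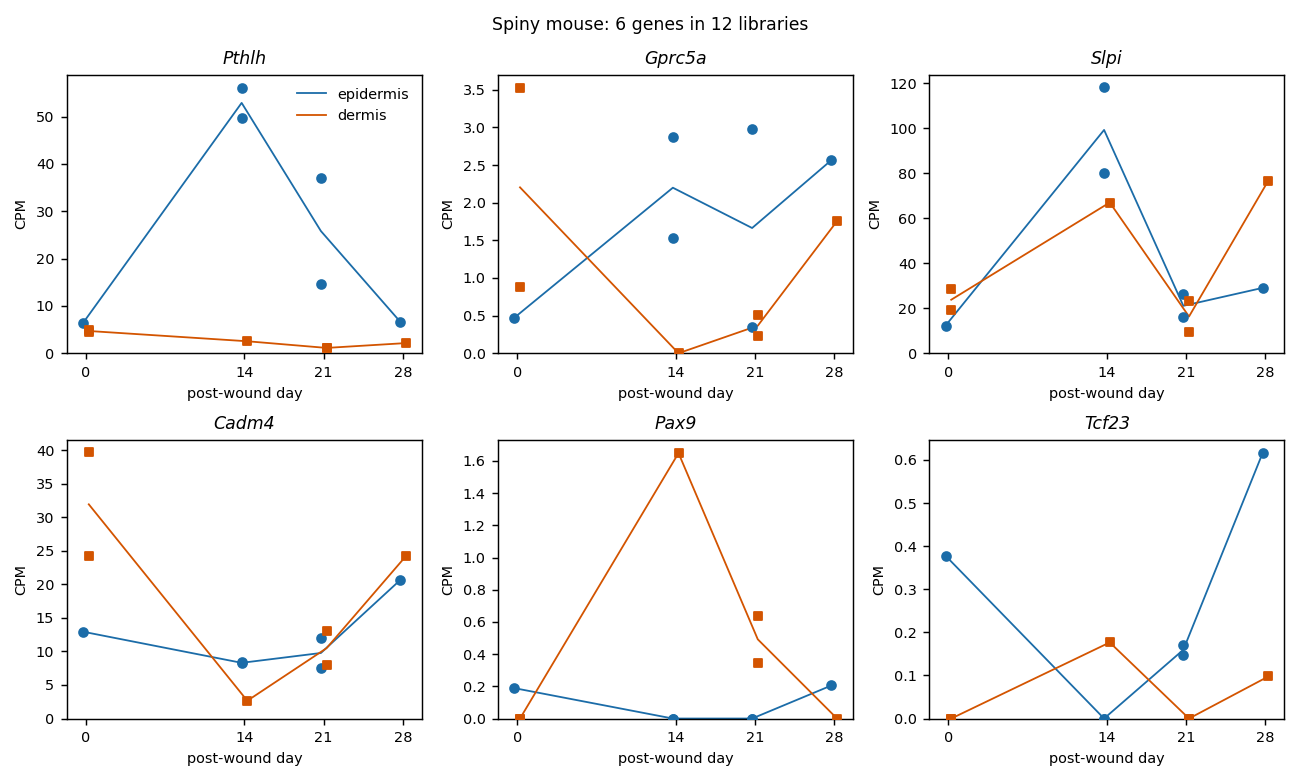
Levels of the 6 genes by post-wound day in the 12 spiny mouse libraries, as CPM on an axis that starts at 0. Points are libraries, lines join the day means, circles are epidermis and squares dermis. Pthlh and Slpi are highest in PWD14 epidermis, Cadm4 is lowest in PWD14 dermis at 2.65 CPM, and the Pax9 and Tcf23 axes end below 2 CPM.

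In spiny mouse dermis, Pthlh, Cadm4 and Gprc5a were lower at PWD21 than at PWD0, and Slpi was highest at PWD14 and PWD28. Pthlh was at 4.41 and 4.997 CPM in PWD0 dermis, 2.53 CPM at PWD14, 1.19 and 1.06 CPM at PWD21 and 2.15 CPM at PWD28. From PWD0 to PWD21 it fell by 2.16 on the log2 scale (SE 0.53, FDR 0.0194), and all PWD21 values lay below all PWD0 values. Leaving out either PWD21 library lost this call (FDR 0.169 and 0.199). Cadm4 was at 24.2 and 39.7 CPM at PWD0, 2.65 CPM at PWD14, 7.94 and 13.04 CPM at PWD21 and 24.2 CPM at PWD28, and fell by 1.68 from PWD0 to PWD21 (SE 0.38, FDR 0.0148). Its lowest value was in the PWD14 library, and it differed over days (FDR 0.0118). Without PWD21 library 1 the PWD21 against PWD0 call was lost (FDR 0.110).

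Gprc5a was at 0.882 and 3.53 CPM in PWD0 dermis, 0 CPM at PWD14, 0.502 and 0.230 CPM at PWD21 and 1.76 CPM at PWD28. From PWD0 to PWD21 it fell by 2.69 on the log2 scale (SE 0.84) with an FDR of 0.0467, close to the threshold, and the call was lost with library size alone (0.0566), the legacy quasi-likelihood test (0.0514), all 6 dermis libraries (0.0577) and DESeq2 (0.0714). It was also lost without PWD21 library 1 (FDR 0.259), PWD21 library 2 (0.406) or PWD0 library 2 (0.427), where the fall shrank to a log2 fold change of -1.56. Slpi was at 19.0 and 28.5 CPM at PWD0, 67.0 CPM at PWD14, 23.1 and 9.52 CPM at PWD21 and 76.7 CPM at PWD28. It did not pass between PWD21 and PWD0 (FDR 0.295) but differed over days (FDR 0.0205). So 3 of the 4 genes were called lower at PWD21 than at PWD0, against 14.2% of 14481 genes, and each of these 3 calls was lost on leaving out at least 1 library. Further, 2 of 5 testable genes differed over days, against 24.7% of 15344 genes. Over days, Pthlh (FDR 0.0673), Gprc5a (0.0529) and Pax9 (0.0690) did not pass. Keratinocyte markers also fell from PWD0 to PWD21. Basal markers summed to 10005 and 5933 CPM at PWD0 and 880 and 1239 CPM at PWD21, and 6 of 9 fell. At PWD14 and PWD28 they summed to 1210 and 2246 CPM. Sebaceous gland (5 of 7), skeletal muscle (6 of 9) and Schwann cell markers (2 of 5) fell as well. Fibroblast markers rose in 8 of 15 cases. Schwann cell markers summed to 349 and 431 CPM at PWD0, 26.4 at PWD14, 232 and 249 CPM at PWD21 and 162 CPM at PWD28. The part of these cell types in the fall of Pthlh, Gprc5a and Cadm4 was not tested. Of 4 tested genes in the list of serine proteases and progranulin, 3 fell and 1 rose in the same comparison. Those that fell were the mast cell proteases Tpsb2, Cma1 and Mcpt4, with log2 fold changes of -3.95, -3.56 and -3.24, and the one that rose was Grn, which encodes progranulin (0.98).

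Across days, Pthlh was the one testable gene that differed between spiny mouse epidermis and dermis. In edgeR's test with day as a factor, it was higher in epidermis by a log2 fold change of 3.38 (SE 0.73, FDR 0.00234), and 26.0% of 15288 genes were higher in epidermis. The epidermis range of 6.42 to 56.2 CPM lay above the dermis range of 1.06 to 4.997 CPM. Gprc5a (1.56, SE 0.95, FDR 0.186), Slpi (-0.05, SE 0.40, FDR 0.918) and Cadm4 (0.06, SE 0.43, FDR 0.920) did not pass. At PWD21 alone Gprc5a passed with an FDR of 0.0478. Keratinocyte markers were higher in epidermis, with 8 of 9 basal and 9 of 9 suprabasal genes called, as were 17 of 19 wound-activated genes, while 14 of 15 fibroblast markers were lower, against 28.0% of all tested genes.

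Whether the change from PWD14 to PWD21 itself differed between the tissues was tested as an interaction, with 1 dermis library at PWD14. Of 15942 genes, 0.0125% were called. The difference of differences was 0.10 for Pthlh (SE 0.73, FDR 0.991), 0.41 for Slpi (SE 0.61, FDR 0.820) and 1.999 for Cadm4 (SE 0.62, FDR 0.239). None of the 4 genes with an estimate passed, so the days were not shown to act differently in the 2 tissues.

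The receptor gene Pth1r was counted mainly in dermis in the spiny mouse, where its ligand was low. Pth1r was at 0 to 0.775 CPM in epidermis libraries, and in dermis at 38.6 and 48.6 CPM at PWD0, 307 CPM at PWD14, 265 and 410 CPM at PWD21 and 273 CPM at PWD28. From PWD0 to PWD21 it rose in dermis by a log2 fold change of 2.86 (SE 0.33, FDR 0.000895 by edgeR), and it was lower in epidermis than in dermis, at a log2 fold change of -9.31 (SE 0.44, FDR 1.70e-08). Fibroblast markers rose in the same dermis comparison, with 8 of 15 called higher and a median of 1.21. They summed to 114345 and 77903 CPM at PWD0 and to 153406 and 184981 CPM at PWD21. Their part in the rise of Pth1r was not tested. Of the other tested PTHrP signaling genes in dermis, Gli2 (1.39) and Gna11 (1.03) rose and Crem (-1.47) fell, so that 3 of 16 genes rose and 1 fell with a median of 0.02 beside 0.03 over all genes. Together 4 of 16 were called, against 26.2% of all tested genes (1742 rose and 2050 fell), which is near the background. In the lab mouse dermis, Pth1r was at 44.6 to 76.7 CPM in all 9 libraries, with no center and margin difference past the threshold.

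**Figure D4:**
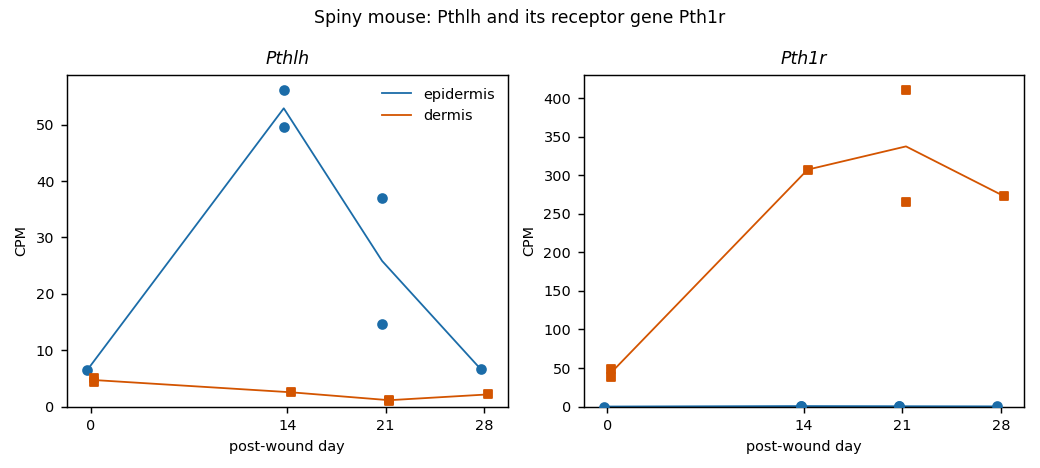
Pthlh (left) and its receptor gene Pth1r (right) by post-wound day in the spiny mouse, as CPM, with circles for epidermis and squares for dermis and lines through the day means. Pthlh peaks in PWD14 epidermis, at a mean of 52.9 CPM, and Pth1r stays between 265 and 410 CPM in every wound dermis library.

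Relatives of the 6 genes were followed in the same spiny mouse comparisons. Between PWD14 and PWD21 in epidermis, 23.4% of all tested genes were higher and 23.2% lower, and the counts of most lists below lie near these shares or rest on few genes. In spiny mouse epidermis, Gprc5d, a hair shaft gene of the Gprc5 family, was lower at PWD14 than at PWD21, at -4.96 (FDR 0.000179), and Wfdc12 was higher by 2.35 (FDR 5.05e-05), in a Wap core list in which 1 of 4 rose. Of the Cadm and nectin genes, 2 of 8 were higher and 3 lower at PWD14, with Nectin3 at -1.63 and Nectin1 at 1.58. Among bHLH relatives of Tcf23, 5 of 10 were higher and 1 lower, led by Tcf15 (2.78) and Id1 (1.95). LEF/TCF factors, of which Tcf23 is no member despite its name, split into 1 higher, Tcf7l2 (1.08), and 1 lower, Lef1 (-1.67). In dermis at PWD21 against PWD0, 3 of 12 bHLH relatives rose and 4 fell, and 2 of 9 Cadm and nectin genes rose and 5 fell. Over all 14481 genes tested there, 1742 rose and 2050 fell. Twist1 (1.48) and Twist2 (2.14) rose, and Cadm3 (-3.03) and Cadm1 (-1.36) fell. Fibroblast markers rose in the same comparison, and their part in these values was not tested.

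**Figure D5:**
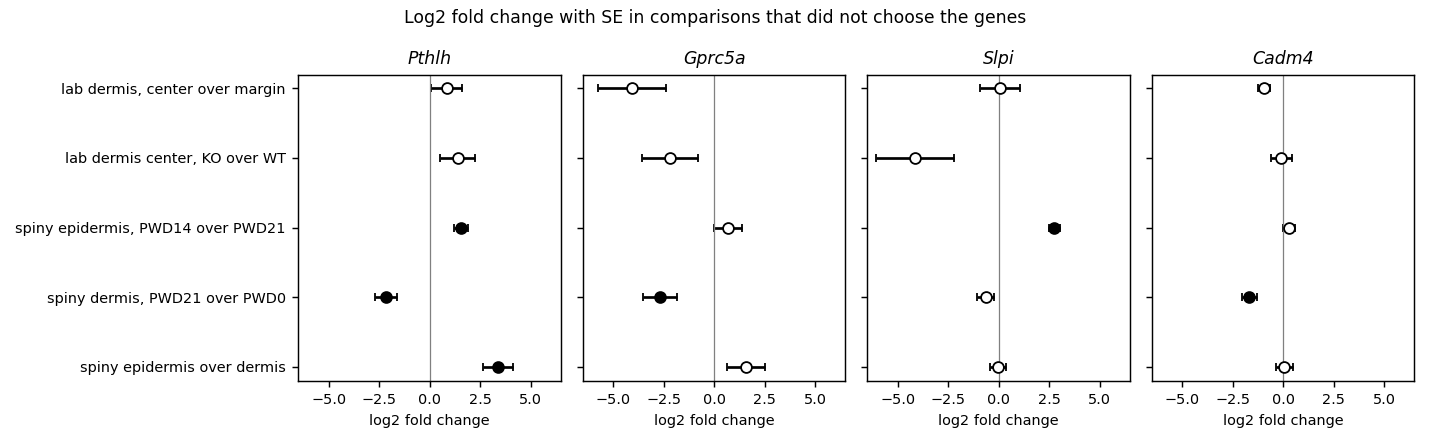
Log2 fold changes with their SE for the 4 testable genes in the 5 comparisons that did not select them, on a common axis, with filled points at an FDR under 0.05 and open points above it. No lab mouse comparison is filled, Pthlh is filled in the 3 spiny mouse comparisons, Slpi in epidermis PWD14 against PWD21, and Gprc5a and Cadm4 in dermis PWD21 against PWD0.

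The genes whose levels followed each member most closely were found by Pearson's r of log2(CPM + 1) over the 13 lab mouse libraries, which share the epidermis and dermis difference and their depth. For Tcf23 they were Tmprss11a (r = 0.991), Lce3f (0.987) and Rpl34-ps1 (0.986), and for Pax9 2300002M23Rik (0.988), Il24 (0.965) and Ndrg1 (0.949). Cadm4 went with Dse (0.951), Gpx4 (0.950) and Slc2a8 (0.948). Slpi went with Rnf19b (0.897), Thbd (0.872) and Pax9 (0.870), the one case where 1 of the 6 genes named another. The epidermis libraries that selected both genes are among the 13, so the selection itself enters this r. Pthlh went with Dvl1 (0.893), Emc6 (0.861) and Get4 (0.853), and Gprc5a with Slc35f6 (0.897), Ehd1 (0.886) and Odc1 (0.842). Over the 12 spiny mouse libraries, Pthlh went with Slurp2 (0.979), Krt16 (0.978) and Atp1b3 (0.975), Cadm4 with Cbs (0.947), Slc7a5 (0.941) and Inafm2 (0.925), Slpi with Psmf1 (0.878), Snord65 (0.876) and Fam71e1 (0.866) and Gprc5a with Tgm3 (0.848), Tmem82 (0.841) and Vegfa (0.834). No gene was named for the same member in both species.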

How the data were processed

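RNA was sequenced from 13 lab mouse and 12 spiny mouse libraries, grouped by the labels. Per the labels and the study's methods, the authors aligned reads to mm10 with STAR (2.4.1d in the submitters' processing notes, another version in the methods), counted them on RefSeq genes with htseq-count 0.6.0 and deposited unnormalized counts for each gene symbol. The strand option and quality minimum of the counting are not given in the sources used here. Each file held 24500 symbols and 5 summary lines, which were left out.

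CPM values use the sum over all gene rows. Tests used R 4.3.3, edgeR 4.0.16 (quasi-likelihood test, TMM, filterByExpr, prior count 0.125, Benjamini-Hochberg adjustment over all tested genes, FDR threshold 0.05) with limma 3.58.1, and were tested on simulated data. Standard errors come from the fitted log2 fold change and its F statistic. DESeq2 1.42.0, RLE factors, library size alone, no filter, at least 10 counts in every library, the legacy quasi-likelihood test, wider sets of libraries and each library left out were alternatives. Tables and plots used Python 3.11.15, matplotlib 3.10.9, scipy 1.17.1, numpy 2.4.6 and pandas 2.3.3.

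A fold against a group with at most 3 reads in every library is a lower bound. Named singly are the 6 genes, the 3 genes per gene and species with the highest Pearson's r among genes that average 1 CPM or more, known receptors and near relatives, and up to 4 genes per list and comparison with an FDR under 0.05 and that same average. Values were seen before Pla1a, Il19 and Tpgs1 were chosen. The 6 genes and all gene lists were chosen with earlier results of these data known, and the lists and the division of WT center dermis libraries are no independent support. All replicate pairs differed by far more than counting noise, with a chi-square per degree of freedom between 30.1 and 394. The highest value was that of the margin epidermis pair, while the center epidermis pair was at 36.1.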

Additional observations from a re-analysis of the deposited data

Results flagged for a closer look

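In the 5 WT center dermis libraries, Slpi was at 26.2 CPM in library 4 and at 0.835 to 3.91 CPM in the others, a gap of 0.878 of the whole range, above the limit of Dixon's test for 5 values. Pax9 was at 0.403 CPM in the same library and had 0 reads in the other 4, a gap that equals the whole range for any gene counted in 1 library alone and here rests on 8 reads. Chance flags about 1 in 20 such groups.

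The difference between wound center and wound margin had opposite signs in the 2 tissues of the lab mouse for a pair of genes, in every library of the comparison. Gprc5a was higher in center than in margin epidermis and lower in center than in margin dermis (log2 fold change -4.07 in dermis with center libraries 1 and 2), but with all 5 WT center libraries the dermal value turned to 0.94, libraries 3, 4 and 5 being at 10.7, 4.94 and 1.63 CPM against 3.06 and 1.40 CPM in the margin. Cadm4 was higher in center epidermis and lower in center dermis (-0.95 in dermis). The epidermal direction selected the genes, neither dermal difference passed the test, and the difference between the tissues was not tested.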

How the results depend on the processing

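No paired analysis was possible because the labels carry no replicate numbers shared between groups. Over 432 values of the 6 genes under the alternatives, 379 kept their direction and side of the threshold, 16 lost the call, 17 gained one and 20 changed sign. The 432 include the comparison that selected the genes, where the selection fixed the direction. They also include the tests over days, whose span has no sign to change. The total is therefore no measure of how stable the directions are. Of 2238 list medians 304 moved by more than their median SE, or by more than a fixed step in the tests over days, which give no SE. In 6 of 12 cases fewer than 2 of the 3 most alike genes were kept with a pseudocount of 0.1. Where not stated, the cause was not tested.

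Counts of called genes moved as follows. In lab mouse epidermis the 176 calls became 0 with the legacy quasi-likelihood test (3328 genes at an unadjusted p under 0.05 in the main test), 1541 with DESeq2, 397 with all 13 libraries and 70 to 7405 with a library left out. In lab mouse dermis 125 became 54 (legacy), 737 (DESeq2), 323 (all 5 WT center libraries), 3 (all 13 libraries) and 19 to 241 with a library left out. KO against WT had 8, which became 0 (10 counts in every library), 2 (legacy), 530 (DESeq2), 190 (all 5 WT), 229 (all 13) and 1 to 3353. Spiny mouse epidermis against dermis had 8255, which became 4806 with 10 counts in every library and stayed within 1.5 times with a library left out (7086 to 8490). The interaction had 2, which became 4 (RLE), 30 (no filter), 6 (10 counts) and 0 to 2. With a library left out, the 6002 calls of spiny mouse epidermis PWD14 against PWD21 became 3470 to 6635, the 3792 of dermis PWD21 against PWD0 1311 to 5118 and the 3795 over dermis days 1604 to 7260, while the 8532 over epidermis days stayed within 1.5 times (6604 to 9572).

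Among genes, signs turned in values that did not pass. For lab mouse dermis these were Gprc5a (0.94 with all 5 WT) and Slpi (-0.03 by library size alone, -0.57 to 0.84 with a library left out). For KO against WT it was Cadm4 (-0.49 to 0.23), and for spiny mouse PWD14 against PWD21 Cadm4 (-0.27 by library size alone, -0.01 to 0.68 with a library left out). For spiny mouse epidermis against dermis they were Slpi (0.53 at PWD21 only, -0.33 to 0.03) and Cadm4 (-0.04 RLE, -0.05 library size alone, -0.13 with 10 counts, -0.03 DESeq2, -0.12 to 0.21), and in the interaction Pthlh (-0.14 by library size alone, -0.42 to 0.92) and Slpi (-0.30 to 0.90). Values of Pax9 outside lab mouse center epidermis, of Tcf23 outside lab mouse epidermis and of spiny mouse Gprc5a rest on few or no reads. The cause was not tested.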
